A study of Mus musculus with 298 samples.

Results

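Ribosomal protein genes encode the protein subunits of the cytosolic ribosome. They were taken by symbol: every protein-coding gene whose GENCODE mouse symbol follows the Rpl or Rps naming pattern, together with Rplp0, Rplp1, Rplp2 and Rpsa. Of the 84 symbols that meet this rule in the annotation, 81 had values among the 14605 genes, and Rpl3l, Rpl10l and Rpl39l were not analysed here. The 81 genes (48 of the large subunit, 33 of the small) all passed the filter on low values, a mean TPM of at least 1 (TPM is transcript abundance scaled to a common sum per library). They were followed in the blood of 20 mice, with 1 library per mouse and week from week 0 to at most week 18.

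All mice were C57BL/6 and carried both transgenes (tTA+/-, BCR-ABL+/-), the controls included. BCR-ABL is the fusion kinase of chronic myeloid leukaemia (CML), and in this Tet-off model the SCL enhancer directs tTA to blood stem and progenitor cells, where tetracycline keeps the fusion gene silent. The 3 control mice (57 libraries) stayed on tetracycline at 0.5 g/L. The 6 mice of the CML cohort (94 libraries) went without it. The 4 TOTO mice (48 libraries) were without it to week 6 and then received it again. The 7 TKI mice (99 libraries) went without it and between weeks 6 and 10 were given 50 mg/kg nilotinib, which blocks the kinase activity of the fusion protein. The 17 mice of the last 3 cohorts are called Tet-off mice up to week 6. Mice were 6 to 8 weeks old at the start, and the labels name 3 sequencing batches, constant within a mouse. Peripheral blood mononuclear cells are the labelled tissue, whereas the extraction protocol starts from whole blood. Transcripts that such a preparation should lack, those of neutrophils and red cells, were present in all groups of libraries.

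The cytosolic ribosome joins a small subunit, which reads the messenger RNA, to a large subunit, which forms the peptide bond. Its proteins are made in matched amounts, and most of their messenger RNAs begin with an unbroken run of C and T at the cap (a 5′ terminal oligopyrimidine tract) through which mTORC1 signalling controls their translation. Red cell precursors and activated or dividing blood cells make many ribosomes, whereas mature neutrophils make few. Several ribosomal protein genes have near-identical copies elsewhere in the genome, and a read from such a sequence can be assigned to either locus.

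This sharing sets how far a value belongs to its gene, so the sequence behind it is given first. Cut into stretches of 31 bases, the coding sequences of 62 of the 81 genes shared at least 1 stretch with another listed gene, 40 shared over 50% of them, and 19 shared none. In 10 genes the closest copy had the higher mean TPM over all libraries. Rps27, which encodes a zinc-binding protein of the small subunit, was listed at a mean of 12.8 TPM, against 869 TPM for Rps27rt on chromosome 9 (chr9:114811434-114811807, GRCm39). The 252-base coding sequence of Rps27 lies whole within Rps27rt, with 0 differing bases, and is shown because no read lying within it can tell the loci apart:
Rps27: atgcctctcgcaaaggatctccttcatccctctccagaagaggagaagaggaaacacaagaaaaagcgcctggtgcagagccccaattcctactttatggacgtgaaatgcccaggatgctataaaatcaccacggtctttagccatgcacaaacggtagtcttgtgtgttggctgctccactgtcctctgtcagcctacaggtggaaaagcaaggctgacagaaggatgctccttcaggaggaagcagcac
In the same way the whole coding sequence of Rpl12 (495 bases) lies in Gm10275, that of Rpl5 (891 bases) in Gm15500 and that of Rpl10 (642 bases) in Rpl10-ps3. Rpl12 stood at 13.6 TPM against 407 for its copy, Rpl5 at 9.73 against 235 and Rpl10 at 35.9 against 357. The listed gene thus held 3.24%, 3.98% and 9.14% of the summed value, and its separate value is uncertain. Rpl5, a large-subunit protein that can also bind Mdm2, is among these, so its changes are given below with and without the copy.

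**Figure D1:**
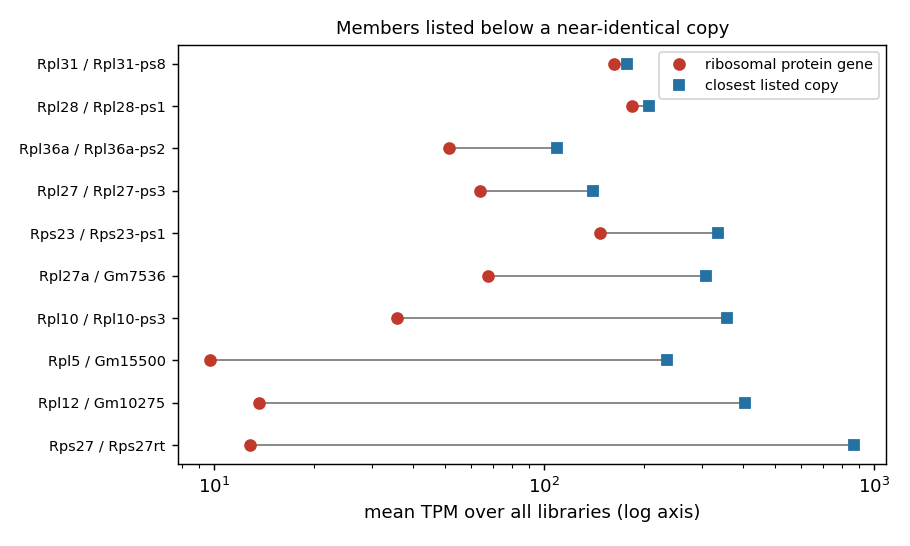
Mean TPM over all libraries (log axis) of the 10 ribosomal protein genes listed below their closest copy, with the gene and the copy joined for each. The gap is widest for Rps27 (12.8 against 869) and narrowest for Rpl31 (163 against 178).

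The genes on which the results turn were less exposed. Rps9 shared no stretch with another listed gene and Rplp1 shared 8.65% of its coding stretches. Rpl41 (26.9%), Rplp0 (46.7%), Rpsa (63.0%) and Rps2 (89.1%) shared more, but the closest copies were listed at only 0.594, 0.507, 1.48 and 0.596 TPM. Rplp0 (chr5:115694515-115701793, + strand) and Rplp1 (chr9:61820557-61821872, - strand) encode stalk proteins that recruit translation factors to the large subunit. Rps9 (chr7:3706979-3710719, + strand) and Rps2 encode proteins of the small subunit, as does Rpsa, which also has the name laminin receptor. Rpl41 (chr10:128383979-128387628, - strand) encodes the smallest protein of the large subunit.

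The start of the messenger RNA is where the pyrimidine tract sits, so 30 bases around the annotated canonical start (10 before it and 20 from it) were read from GRCm39 on the gene's strand. Capitals mark the longest unbroken run of C or T in the window. Members that moved with the switch and members that moved against the rest are shown together:
Rps2 (chr17:24939072-24939101): cggcgCCTCCCTCTTCTTCTTCTTCgggag
Rpsa (chr9:119956745-119956774): gcgtgcgccagaggCTTTTTCCggagcgga
Rplp0 (chr5:115697516-115697545): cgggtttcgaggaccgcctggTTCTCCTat
Rplp1 (chr9:61821853-61821882): cgagTCgggcatcgattggtcggcgcggtc
Rps9 (chr7:3706969-3706998): cgagcggtgcgtgatgacgTCactacaagg
Rpl41 (chr10:128385003-128385032): tgacgacaCCgagcacgccattaaatagca
Rpl5 (chr5:108048357-108048386): cttgaggcctacagccaCTCTTTCTCacgt
Rpl36 (chr17:56920345-56920374): cagcgcgcctgTCTCTCTagccggaaaggc
Rps15a (chr7:117715395-117715424): gcttccgCTTCCCataattccgtgcgtttg
Rps7 (chr12:28685933-28685962): cggTTTCCacccacctacttccgctgtccc
A run of at least 8 C or T on the gene's strand was found in 17 of 81 members (21.0%) and in 1076 of 9422 protein-coding genes searched (11.4%). Such a run was present in 3 of the 14 members that were higher at week 6 relative to the others. It was present in 2 of the 11 that were lower and in 12 of the other 56. The run could lie anywhere in the window, so these counts cannot tell which members begin with a tract. Rps2 held the longest run of the 14, at 20 bases, while Rplp1, Rps9 and Rpl41 each had a run of 2. An annotated start can lie some bases from the start in use, so a short run says only that these letters are not in the window.

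Of the 81 genes, 68 had a mean above 100 TPM and 9 a mean below 50. TPM is scaled to transcript length, so levels may be compared between genes. Among the highest mean levels were those of Rpl41 (953 TPM), Rpl13a (773), Rps29 (603), Rps24 (576) and Rplp1 (536). The lowest were Rps4l (1.04 TPM), Rpl7l1 (8.09), Rps27l (9.69), Rpl5 (9.73), Rps27 (12.8) and Rpl12 (13.6). Of these 6, Rps4l, Rpl7l1 and Rps27l are divergent paralogs, and Rpl5, Rps27 and Rpl12 are the genes outlisted by a copy.

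Members moved together from library to library. With each library set to the median log2(TPM + 1) of the members, the SD over libraries was smallest for Rpl9 (0.13), Rpl15, Rps21 and Rpl34 (0.14 each). It was largest for Rps27 (0.65), Rpl41 (0.56), Rpl10 (0.53) and Rpl5 (0.51), of which all but Rpl41 have a copy listed above them. Small-subunit genes held a median of 45.5% of the members' summed TPM (38.4 to 49.4%).

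Libraries differed most in what else they contained. Haemoglobin transcripts took a median of 42.6% of TPM (0.331 to 74.8%), so that the members' share of all TPM had a median of 1.89% but ran from 0.390 to 5.53%. The fusion transcript was above 0 in 8 of 57 control libraries (highest 0.716 TPM), in 0 of 3 control and 16 of 17 Tet-off libraries at week 6 (median of the latter 5.92 TPM), and in 3 of 16 TOTO libraries from week 8 on. In the library set labelled CML mouse 487 it was above 0 in only 3 of 19 libraries (highest 0.409 TPM), against 61 of 75 in the other CML mice. Values without that mouse are given for some of the comparisons. In control mouse 490 at week 17, 16 members were listed at 0, and that library entered no test. Sequencing depth is unknown, since TPM keeps no depth.

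Set against protein-coding transcripts other than haemoglobin, the members' summed share had a median of 9.83% of TPM (4.32 to 18.3%). In Tet-off mice it was 10.6% at week 0 (7.98 to 18.3%) and 9.15% at week 6 (6.91 to 12.4%), and in the 3 controls it was 11.0% (10.3 to 13.2%) and 10.7% (10.4 to 11.1%). These ranges overlapped at both weeks. At week 1 the median was low in every cohort, controls included: 7.50% in CML, 7.80% in TKI, 7.29% in TOTO and 7.13% in control mice, of which 1 stood at 13.2%. By week 2 the medians were 10.4, 11.1, 8.72 and 11.7%.

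Later levels are given by cohort, at weeks that are not the same for all cohorts. CML mice stood at a median of 6.59% in week 14 (4.39 to 8.48%) and 8.07% in their last week (4.34 to 9.49%). In TOTO mice the week 6 median of 9.64% (8.80 to 10.2%) was followed by 9.20% in week 7, 11.8% in week 8 (10.2 to 15.0%), 12.8% in week 16 and 11.7% in week 18 (9.67 to 14.1%). Between weeks 7 and 8 the median also went from 8.92 to 11.2% in controls and from 8.99 to 11.0% in CML mice, but only from 8.86 to 9.04% in TKI mice. Controls had 9.97% at week 18 (9.32 to 11.4%), a range that overlaps the last values of the CML mice. TKI mice had medians of 9.01% in week 6, 9.28% in week 10 and 8.71% in their last week after nilotinib (6.53 to 13.1%). These shares are a description, with no test. In bulk RNA, fewer cells of a type and less RNA per cell cannot be told apart.

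**Figure D2:**
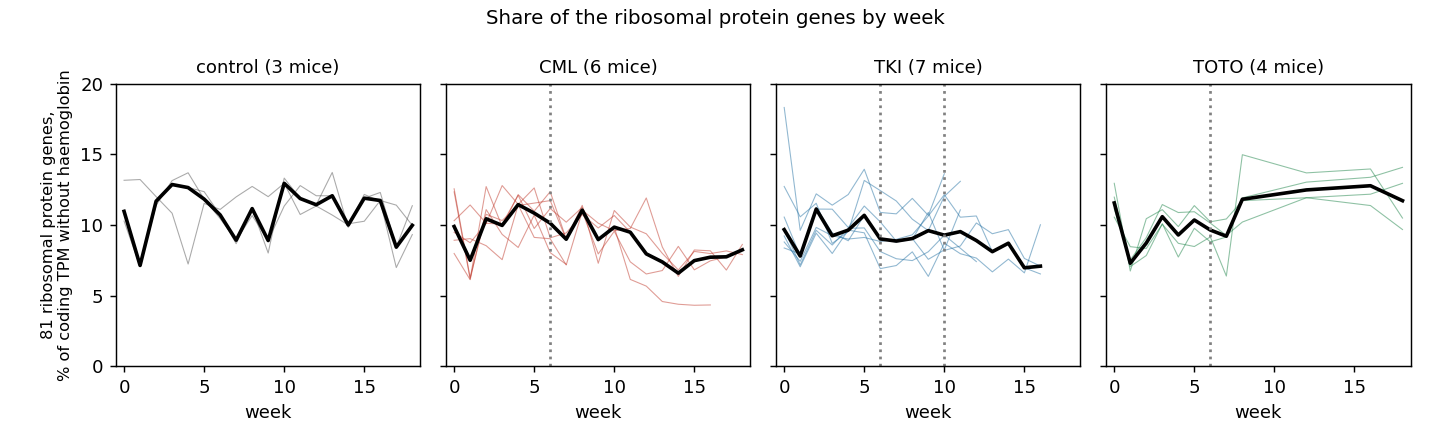
Summed TPM of the 81 ribosomal protein genes as a percentage of protein-coding TPM without haemoglobin, by week, in 4 panels for the cohorts; thin lines are mice and the thick line is the cohort median. The median dips at week 1 in every panel, and between weeks 7 and 8 it goes up in TOTO (9.20 to 11.8%), control (8.92 to 11.2%) and CML mice (8.99 to 11.0%).

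The first question was what 6 weeks without tetracycline did to these genes. After each library was rescaled by a size factor (the median ratio over 4096 genes), 35 of the 81 members were higher and 2 were lower at week 6 than at week 0 in the 17 Tet-off mice, against 33.8% of all 10519 genes tested called higher and 39% called lower. The 35 are 43.2% of the members. The direction depended on the scale: with TPM as deposited 0 were higher and 0 lower (4.21 and 16.4% of all genes), and against protein-coding TPM without haemoglobin 4 were higher and 40 lower (16.3 and 58.7%). An unadjusted p under 0.05 was reached by 1 member with TPM as deposited. The members' median log2 change was 0.19 rescaled, -0.15 as deposited and -0.20 against coding TPM, beside -0.02, -0.34 and -0.32 for all genes, so that on each scale the members lay above the bulk of genes by a small amount. Calls are limma's at a Benjamini-Hochberg adjusted p of 0.05 over all genes.

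The rescaled rises covered both subunits, 22 of 48 large-subunit genes and 13 of 33 small-subunit genes. The largest was that of Rpl41, at 0.79 ± 0.20 (log2, SE; 14 of 17 mice higher; limma adjusted p = 0.00103). Rplp0 also rose by 0.79 ± 0.16 (15 of 17; adjusted p = 0.000145), Rps2 by 0.71 ± 0.11 (16 of 17; adjusted p = 5.42e-06) and Rpsa by 0.62 ± 0.09 (16 of 17; adjusted p = 2.16e-06). Rplp1 (0.59 ± 0.13) and Rps9 (0.56 ± 0.11) came next. These 6 kept a positive sign on each scale: as deposited the changes were 0.45, 0.45, 0.36, 0.27, 0.25 and 0.22 with adjusted p from 0.22 to 0.63, and against coding TPM Rplp0 (0.40), Rpl41 (0.40), Rps2 (0.31) and Rpsa (0.22) were the 4 called higher. The 2 members called lower were genes outlisted by a copy, Rpl5 (-0.50 ± 0.08, lower in 17 of 17 mice) and Rpl12 (-0.29 ± 0.09). With the copy's TPM added these became 0.10 (limma adjusted p = 0.300) and 0.03 (0.813).

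The blood itself changed over these weeks. All 12 neutrophil markers listed were higher (median log2 change 2.93), as were 9 of 9 platelet, 6 of 6 basophil and mast cell and 7 of 8 monocyte markers, while 10 of 10 B cell (median -1.08), 9 of 10 T cell and 7 of 7 NK cell markers were lower. Minus the change in controls, 8 of 12 neutrophil, 4 of 9 platelet, 4 of 6 basophil and mast cell and 1 of 8 monocyte markers were called higher and 6 of 10 B cell markers lower, with 0 of 10 T cell and 0 of 7 NK cell markers called (NK cell median -0.71 before and -0.11 after). The summed neutrophil markers ran from 254 to 15505 TPM at week 0 (median 1546) and from 770 to 23044 at week 6 (median 8351), and the B cell markers from 208 to 2491 (median 550) and from 82.2 to 629 (median 294). No listed marker was at 0 in all libraries of a group. Their part in the members' changes was not tested.

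The size of the shift differed between cohorts. The members' median change minus that of all genes averaged 0.31 in CML mice (above 0 in 6 of 6), 0.01 in TKI mice (5 of 7), 0.46 in TOTO mice (4 of 4) and 0.10 in controls (3 of 3). Whether these cohorts differ was not tested.

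Because the scale decides the sign for most members, they were next compared with each other: each library was shifted so that the median member was at 0, a value that no rescaling of the library moves beyond the effect of the pseudocount. On this relative scale 14 members were higher and 11 lower at week 6 (21.9 and 45% of all genes). The 14 were led by Rpl41 (0.63 ± 0.15, 15 of 17 mice), Rplp0 (0.63 ± 0.12, 16 of 17), Rps2 (0.54 ± 0.08, 17 of 17), Rpsa (0.45 ± 0.07, 17 of 17), Rplp1 (0.43 ± 0.09, 16 of 17) and Rps9 (0.40 ± 0.09, 16 of 17). The other 8 were Rps12, Rpl36a, Rpl28, Rpl35, Rpl37a, Rps27a, Rpl29 and Rpl6, with changes from 0.32 down to 0.17. The 11 lower were Rpl5 (-0.66), Rpl12 (-0.45), Rps27 (-0.44 ± 0.12), Rpl36 (-0.25), Rps15a (-0.24), Rps7 (-0.21), Rpl26, Rpl21, Rpl30, Rpl27 and Rpl27a. With the closest copy added, Rpl5 stood at -0.08, Rpl12 at -0.16 and Rps27 at -0.52. The count of lower members was 7 without CML mouse 480, 484 or 542 or TOTO mouse 482.

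**Figure D3:**
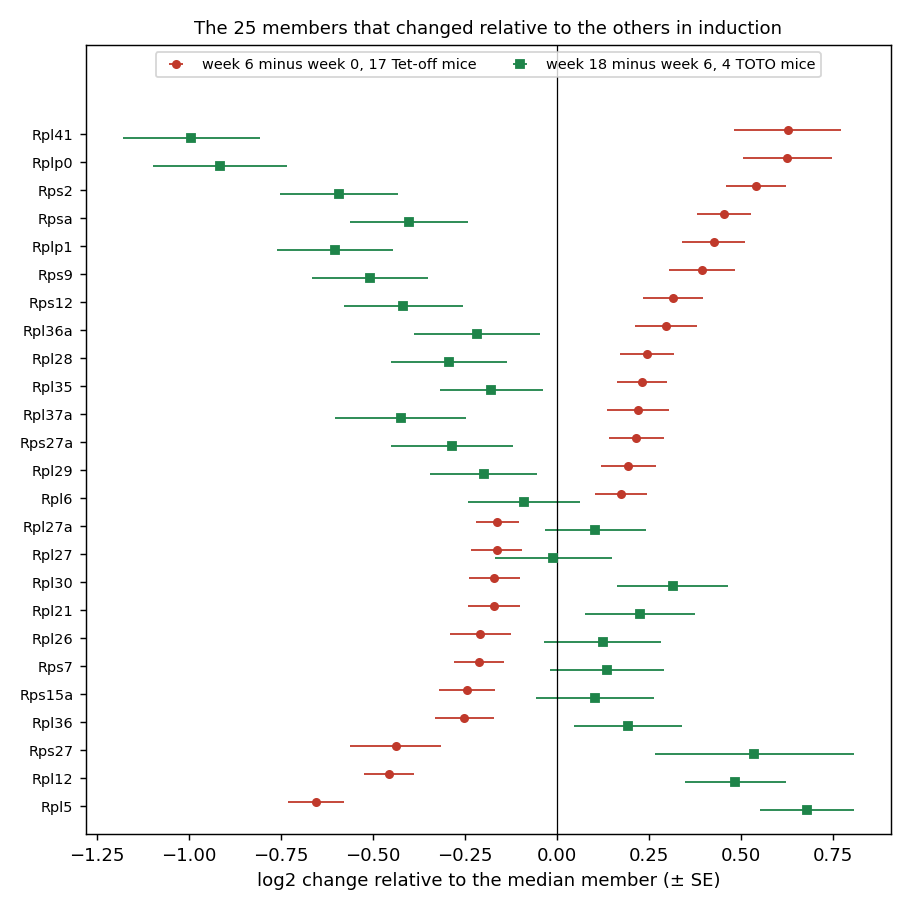
Log2 change relative to the median member (± SE) of the 25 members called between weeks 0 and 6: red circles, week 6 minus week 0 in 17 Tet-off mice; green squares, week 18 minus week 6 in 4 TOTO mice. Rpl41 (0.63 and -0.99) and Rplp0 (0.63 and -0.91) show the widest gaps between the changes, and Rpl5 (-0.66 and 0.68) runs the other way; the TOTO week 6 libraries enter both changes.

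The levels behind these changes were as follows. The relative level of Rps2 was -0.25 at the lowest, -0.04 at the median and 0.27 at the highest in Tet-off mice at week 0, and -0.05, 0.45 and 1.10 at week 6, while the 3 controls stood between -0.07 and 0.00 at week 6. Only the Tet-off mouse labelled 487 fell within the control range then, and the lowest of the other 16 was 0.33. In TPM Rps2 ran from 147 to 452 at week 6 (median 323) against 122, 128 and 256 in controls, and those ranges overlapped.

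Rpsa was the only member whose relative level at week 6 did not overlap between Tet-off mice and controls, and only narrowly. Its relative level in Tet-off mice was 0.02, 0.26 and 0.53 (lowest, median, highest) at week 0 and 0.30, 0.68 and 1.10 at week 6. In control mice 489, 490 and 488 it was 0.29, 0.36 and 0.13 at week 0 and 0.22, 0.29 and 0.15 at week 6. All 17 Tet-off mice thus lay above all 3 controls at week 6, which was true of 0.124% of all genes. In TPM the same libraries overlapped, at 152, 385 and 566 in Tet-off mice against 143, 150 and 313 in controls.

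Rplp0 began at -0.09, 0.24 and 1.17 in Tet-off mice and stood at 0.21, 0.88 and 1.53 at week 6, against 0.46, 0.31 and 0.32 in controls 489, 490 and 488. Its TPM went from 145, 240 and 658 to 229, 411 and 600, with 168, 169 and 318 in controls at week 6. Rps9 went from 0.66, 0.91 and 1.26 to 0.98, 1.32 and 1.88, against 0.87 to 1.06 in controls. Rpl41 went from 0.84, 1.60 and 2.71 to 1.58, 2.26 and 2.69, against 1.74 to 2.25 in controls, so its ranges overlapped throughout.

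**Figure D4:**
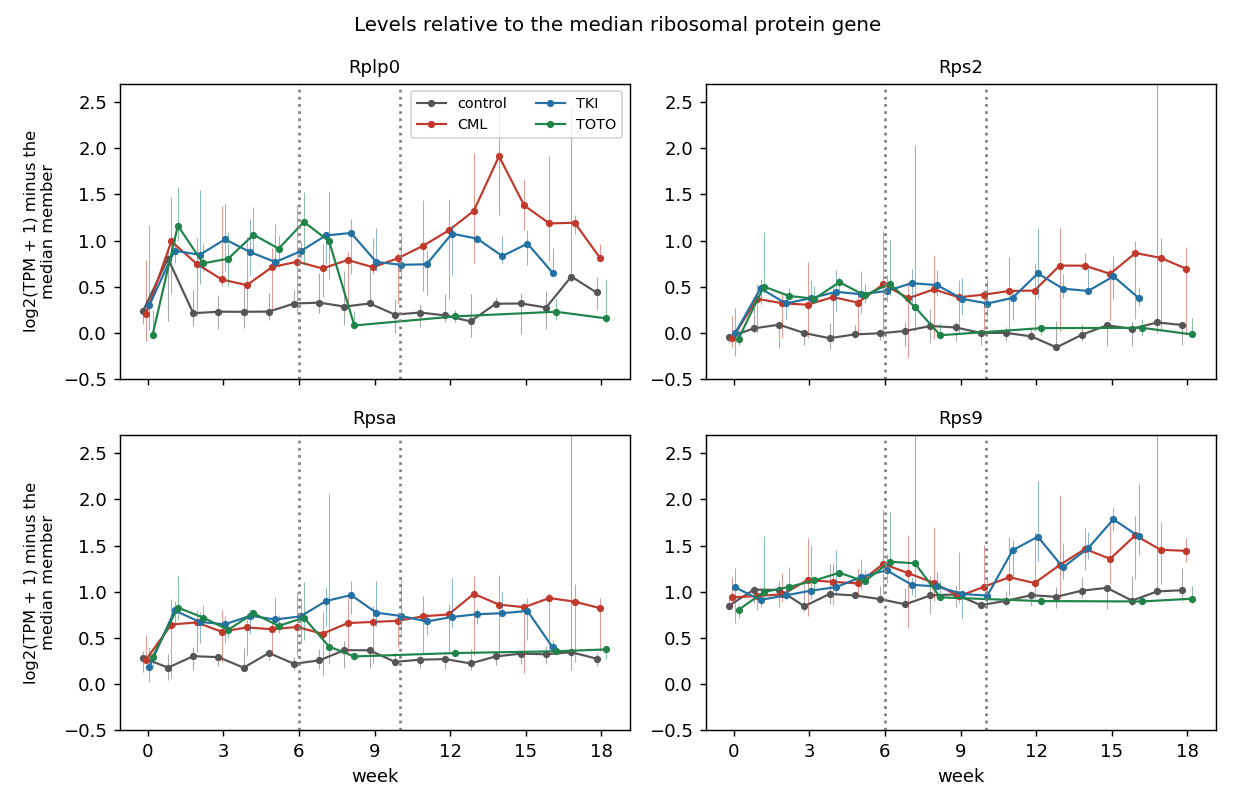
Level relative to the median member (log2) by week for Rplp0, Rps2, Rpsa and Rps9; lines are cohort medians, thin vertical bars the range over mice and dotted lines mark weeks 6 and 10, and the axis stops short of the widest ranges (control mouse 490, week 17: Rps2 4.58). Rps2 and Rpsa stand near 0.00 and 0.22 in controls at week 6, and TOTO mice stand close to those levels at week 8.

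For Rplp0, Rpl41 and Rplp1 the change was already present after 1 week, and controls moved too. Between weeks 0 and 1 the mean relative change of Rplp0 was 0.66 in CML, 0.40 in TKI, 1.18 in TOTO and 0.44 ± 0.49 (SD, n = 3) in control mice. That of Rpl41 was 0.97, 0.43, 1.78 and 0.90 ± 0.68, higher in 3 of 3 controls, whose mean was near that of CML mice and above that of TKI mice. Rplp1 had 0.57, 0.63, 1.02 and 0.21 ± 0.21. Rpsa behaved otherwise, at 0.29, 0.58, 0.60 and -0.07 ± 0.04, higher in 0 of 3 controls. Counted from week 1 instead of week 0, the relative change to week 6 was -0.05 for Rplp0 (limma adjusted p = 0.646), -0.03 for Rpsa (0.746) and 0.09 for Rps2 (0.33). It was -0.31 for Rpl41 (0.0268) and -0.28 for Rplp1 (0.00339), both lower, and 0.36 for Rps9 (0.00062), higher. On this scale 4 members were then called higher, and the share of all genes called from week 1 is not reported here. Of these 6 genes Rps9 alone was called higher from week 1 on the relative scale. Its first-week changes were -0.02 in CML, -0.09 in TKI, 0.33 in TOTO and 0.12 in control mice. On the rescaled values Rps9 (0.58, limma adjusted p = 9.29e-07), Rps2 (0.32, 0.0003) and Rpsa (0.20, 0.0123) were called higher from week 1. Rplp0 (0.18), Rpl41 (-0.09) and Rplp1 (-0.05) were not called.

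By cohort, the week 0 to 6 relative change of Rplp0 averaged 0.56 ± 0.39 (SD, n = 6) in CML, 0.40 ± 0.44 (n = 7) in TKI, 1.12 ± 0.46 (n = 4) in TOTO and 0.17 ± 0.17 (n = 3) in control mice. For Rps2 the means were 0.55, 0.46, 0.67 and 0.03, and for Rpsa 0.34, 0.54, 0.48 and -0.04. Within batches 2021_E (2 Tet-off mice), 2022_A (10) and 2022_B (5) the Tet-off means were 0.52, 0.74 and 0.45 for Rplp0, 0.42, 0.60 and 0.48 for Rps2, and 0.37, 0.49 and 0.41 for Rpsa. All 3 genes were higher in every batch. Controls 489 and 490 were in 2021_E and control 488 in 2022_A, so that 2022_B held no control.

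The change in Tet-off mice was then set against that in the 3 control mice over the same weeks, with both in 1 model. On the rescaled values 0 members were called higher and 0 lower (8.16 and 7.93% of all genes), and 3 reached an unadjusted p under 0.05 in limma. Rpsa came nearest, with a difference of 0.58 ± 0.23 (limma adjusted p = 0.0744), made up of 0.62 in Tet-off and 0.04 in control mice. Without TKI mouse 514 it was 0.64 with an adjusted p of 0.0365. Rps2 had 0.61 ± 0.28 (adjusted p = 0.120), Rplp0 0.54 (0.359) and Rpl41 0.25 (0.761). The members' median difference was 0.09 rescaled (-0.03 for all genes), 0.69 as deposited (0.40) and -0.10 against coding TPM (-0.14).

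Relative to the members, 0 were higher and 1 lower than in controls (0.656 and 11.7% of all genes). That gene was Rpl5, at -0.62 ± 0.20 (limma adjusted p = 0.0427), from -0.66 in Tet-off mice and -0.04 in controls. With its copy Gm15500 added the difference was -0.05 (0.86), and it was no longer past the threshold when any 1 of 480, 483, 507, 512, 513, 545 or the controls 488, 489 and 490 was left out. Rpsa had 0.49 (0.081), Rps2 0.52 (0.096), Rplp1 0.37 (0.244), Rplp0 0.45 (0.317), Rps9 0.31 (0.361) and Rpl41 0.16 (0.785).

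Week by week, the members whose Tet-off mice all lay above the 3 controls on the relative scale were few. There were 0 at weeks 0 and 1 (0.00951 and 0.238% of all genes). At week 2 there were 3 (Rpl29, Rps12 and Rpl7a, 0.456%), at week 3 only Rplp0 (0.684%), at weeks 4 and 5 there were 0 (0.0475 and 1.09%) and at week 6 only Rpsa (0.124%). Mouse 487, in which the fusion transcript was mostly not detected, counts among the 17. Without it Rpsa lay above the controls in every week from 1 to 6, and Rps2 and Rplp0 in weeks 2 to 6. The counts without it were 1, 9, 4, 4, 4 and 7 members for weeks 1 to 6, beside 0.599, 7.35, 2.6, 0.97, 3.78 and 3.04% of all genes. In the other direction only Rps15 lay wholly below the controls, at week 3 (0.447% of all genes). In the other weeks there were 0, beside 0.019 to 7.97% of all genes. Without 487 those below were Rps13 at week 2 (11.8%), Rps15 at week 3 (0.903%) and Rpl12, Rpl30 and Rps27 at week 5 (10.3%).

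The last library of each CML mouse was compared with week 18 in controls, each against week 0. The last week was 7 in CML mouse 477, 11 in 484, 16 in 542 and 18 in 480, 487 and 541, so that the spans differ between the groups. Mouse 487, in which the fusion transcript was mostly not detected, counts among these 6 mice. In the last week of the 6 CML mice 0 members were called in either direction (0.228 and 0.0856% of all genes), with 0 at an unadjusted p under 0.05 in limma. The median difference was -0.03 rescaled (-0.01 for all genes), 0.07 as deposited (0.08) and -0.34 against coding TPM (-0.24; 0.0319 and 0.0212% of genes called, 0 members). Rpl41 (0.52 ± 0.46, limma adjusted p = 0.570), Rps2 (0.51 ± 0.31, 0.373), Rplp0 (0.49, 0.502) and Rps9 (0.40, 0.512) had the largest positive differences, and Rpl12 (-0.42, 0.676) and Rpl22 (-0.40, 0.489) the largest negative ones. Relative to the members there were also 0 calls (0.019 and 0% of all genes). Over weeks 7 to 18 the relative level of Rpsa was 0.09, 0.81 and 1.19 (lowest, median, highest) in CML mice other than 487, against a median of 0.31 in 487 and 0.29 in controls from week 2 on. Rplp0 stood at 0.39, 0.96 and 2.07 in the same CML libraries.

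Tetracycline was given again to the 4 TOTO mice after week 6. Between weeks 6 and 18, 2 members were higher and 13 lower on the rescaled values, against 30.2 and 26% of all genes. With TPM as deposited 1 was higher and 0 lower (22.3 and 4.46%), and against coding TPM 44 were higher and 2 lower (57.5 and 10.9%). The members' median change was -0.16 rescaled (0.05 for all genes), 0.40 as deposited (0.44) and 0.41 against coding TPM (0.48), so that on each scale they lay below the bulk of genes. The 3 CML mice with both weeks, which did not receive tetracycline again, moved the same way: the members' median change minus that of all genes averaged -0.25 ± 0.09 (SD; above 0 in 0 of 3), against -0.22 ± 0.27 in TOTO mice (1 of 4) and -0.02 ± 0.14 in controls (1 of 3). These CML mice included 487, in which the fusion transcript was mostly not detected, at -0.25. The other 2, 480 and 541, averaged -0.25 ± 0.13. The count of lower members was 7 without mouse 476 and 20 without 483, and 1 member was higher without either.

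The largest falls were those of Rpl41 (-1.13 ± 0.20, limma adjusted p = 0.000948) and Rplp0 (-1.05 ± 0.20, 0.00157). Rplp1 fell by 0.74 (0.00376), Rps2 by 0.73 (0.00273), Rps9 by 0.64 (0.00632) and Rpsa by 0.54 (0.0149), the last at -0.41 with an adjusted p of 0.0601 without mouse 482. On the other scales Rplp0 and Rpl41 stayed below 0 (-0.49 and -0.56 as deposited, adjusted p 0.23 and 0.14; -0.48 and -0.56 against coding TPM, 0.017 and 0.0087), while Rpsa was at 0.03 and 0.04. Rplp1 (-0.17 and -0.17, limma adjusted p 0.69 and 0.38), Rps2 (-0.16 and -0.15, 0.73 and 0.47) and Rps9 (-0.08 and -0.07, 0.87 and 0.75) were not past the threshold on either of these scales. Rpl5 (0.67 ± 0.10) and Rpl12 (0.41) were higher, at 0.02 and 0.10 with their copies added, and Rpl12 was not past the threshold without mouse 476, 483 or 545. Of the 35 members higher between weeks 0 and 6, 12 were among the 13 lower here, but the comparisons share the TOTO week 6 libraries and are not independent.

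In mice 476, 482, 483 and 545 Rplp0 stood at 321, 341, 404 and 537 TPM at week 6 and at 333, 226, 305 and 270 TPM at week 18, lower in 3 of 4. Its relative level was -0.03, -0.01, -0.03 and 0.24 at week 0. At week 6 it was 1.53, 1.31, 1.10 and 0.73, at week 8 it was 0.24, 0.12, 0.04 and 0.05, and at week 18 it was 0.11, 0.59, 0.12 and 0.19. The week 6 values did not overlap those of weeks 8 or 18, and the level was already low at week 8. The share of all genes that separated in this way is not reported here.

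Rps2 followed the same course. Its relative level was -0.08, -0.04, -0.13 and 0.05 at week 0, then 0.41, 1.01, 0.65 and 0.40 at week 6, -0.05, 0.00, 0.10 and -0.06 at week 8 and -0.02, 0.16, -0.02 and -0.02 at week 18. Rpsa had 0.48, 1.10, 0.76 and 0.68 at week 6, then 0.29, 0.31, 0.32 and 0.26 at week 8 and 0.36, 0.39, 0.39 and 0.27 at week 18. In both genes the week 6 values of the 4 mice lay above those of weeks 8 and 18. How many of all genes did so is not reported here, and 19.2% of all genes were called lower on the relative scale between weeks 6 and 18. From week 6 to week 8 the mean change was -1.06 ± 0.27 (SD, n = 4) for Rplp0, -1.15 ± 0.26 for Rpl41, -0.71 ± 0.11 for Rplp1, -0.62 ± 0.26 for Rps2 and -0.46 ± 0.25 for Rpsa, each lower in 4 of 4 mice. Rplp0 averaged -0.02 in controls and -0.06 in CML mice over these weeks.

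Tested relative to the members, 2 were higher and 5 lower between weeks 6 and 18 (16.7 and 19.2% of all genes). The 5 were Rpl41 (-0.99 ± 0.19), Rplp0 (-0.91 ± 0.18), Rplp1 (-0.60), Rps2 (-0.59) and Rps9 (-0.51), the last not past the threshold without mouse 482 or 545. Rpsa (-0.40) had a limma adjusted p of 0.067. Rpl5 (0.68 ± 0.13) and Rpl12 (0.49) were the 2 higher, and 1 of them remained without mouse 476 or 483. Over the same weeks the neutrophil markers fell (12 of 12, median -3.95), as did 9 of 9 platelet markers, while 10 of 10 B cell and 10 of 10 T cell markers were higher. Summed neutrophil markers were 3983 to 20296 TPM at week 6 and 777 to 1459 at week 18, with none at 0 throughout a group. Their part in the members' changes was not tested.

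At week 18, TOTO mice did not differ detectably from controls in the change since week 0: 0 members were called in either direction (0 and 0% of all genes), and 0 reached an unadjusted p under 0.05 in limma, also relative to the members (0 and 0%). The median difference was 0.17 rescaled (0.01 for all genes) and -0.14 as deposited (-0.30). The comparison rests on 4 against 3 mice. All 4 TOTO mice were in batch 2022_A, whereas 2 of the 3 controls were in 2021_E, so that cohort and batch are in part confounded.

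Nilotinib was given to TKI mice between weeks 6 and 10. On the rescaled values 8 members were higher and 0 lower in the 7 mice, a share of 9.88% against 19.9% of all genes called higher and 16.8% called lower. Both with TPM as deposited (3.1 and 4.84%) and against coding TPM (12.2 and 15.1%) 0 were called. The members' median change was 0.14 rescaled (0.05 for all genes), and its batch means were 0.16 (2022_A, 4 mice) and 0.11 (2022_B, 3 mice). Over the same weeks the mean was 0.13 in the 3 untreated controls and 0.03 in the 5 CML mice, and minus all genes it was 0.11 in TKI, 0.12 in control and 0.03 in CML mice. Leaving out single mice moved the count: it was 2 without 507, 3 without 508 or 514, 5 without control 489, 13 without CML mouse 542 and 21 without 511.

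The 8 were 4 genes of each subunit. Rps24, mutated in Diamond-Blackfan anaemia, had 494, 642 and 846 TPM (lowest, median, highest) at week 6 and 563, 787 and 1078 at week 10. Its change was 0.32 ± 0.09 (7 of 7 mice higher, limma adjusted p = 0.0169), and 0.33 as deposited (0.42). Rps20 went from 166, 199 and 288 to 193, 251 and 354 TPM, a change of 0.29 ± 0.07 (7 of 7, 0.00677). Both ranges overlapped between the weeks although each mouse went up.

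Rpl21 (0.29 ± 0.10, 7 of 7, limma adjusted p = 0.0331), Rps4x (0.28 ± 0.08, 6 of 7, 0.0154) and Rpsa (0.25, 6 of 7, 0.0264) followed, and Rpl19 (0.22), Rpl30 (0.21) and Rpl27a (0.18) completed the list. Rps24 and Rps4x were not past the threshold without 507, Rpl21 not without 507, 508, 513 or 514, and Rpsa not without 507, 508, 512 or 514. Rpsa went from 307, 407 and 566 to 407, 525 and 654 TPM. With week 9 as the end, Rps24 was at 0.12 and Rps20 at 0.13.

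Rplp0, Rps2 and Rpsa were called lower on the rescaled values when tetracycline was given again, and were not called lower under nilotinib. Relative to the members Rplp0 and Rps2 were also called at the shut-off and Rpsa was not. Rpsa then stood at 0.03 as deposited and 0.04 against coding TPM. The mean relative change from week 6 to week 10 in TKI mice was -0.09 for Rplp0, -0.08 for Rps2 and 0.10 for Rpsa. Over weeks 7 to 10 the relative level was 0.58, 0.99 and 1.24 for Rplp0 (lowest, median, highest of 28 libraries) and 0.55, 0.89 and 1.17 for Rpsa. TOTO libraries from weeks 8 to 18 had 0.04, 0.15 and 0.59 for Rplp0 and 0.26, 0.34 and 0.39 for Rpsa, which overlap the TKI range only in the highest Rplp0 value. The cohorts differ in treatment and weeks, and this difference was not tested.

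Relative to the members, 0 were higher and 2 lower under nilotinib (3.25 and 21.8% of all genes). Rps27l, a p53-responsive paralog of Rps27, had -0.40 ± 0.12 (limma adjusted p = 0.0211, higher in 1 of 7 mice) and Rps9 -0.28 ± 0.10 (0.0483, higher in 1 of 7). Rps27l was not past the threshold without 502, 507, 508 or 514. Rps9 was not without any 1 of CML mice 480, 487 and 541, TKI mice 502, 507, 508, 512, 513 and 514 or the 3 controls. The count was 0 without 502, 507, 508 or 514 and 4 without 511.

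Set against the 5 CML mice over the same weeks, 0 members were called higher and 0 lower (9.85 and 11.3% of all genes), with 4 at an unadjusted p under 0.05 in limma, and 0 as deposited (0.0285 and 3.38%), 0 against coding TPM (5.18 and 8.26%) and 0 relative to the members (2.36 and 7.65%; 1 at an unadjusted p under 0.05). The nearest were Rpl7l1 (-0.26, limma adjusted p = 0.108), Rps4l (-0.28, 0.114), Rps4x (0.28, 0.116) and Rpl21 (0.34, 0.125). Without CML mouse 542 or TKI mouse 511, 1 member was lower. In TKI mice 12 of 12 neutrophil markers were lower at week 10 (median -1.90) and 10 of 10 T cell and 7 of 10 B cell markers were higher. Summed neutrophil markers were 4541 to 23044 TPM at week 6 and 1455 to 7285 at week 10. Their part in the members' changes was not tested.

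After nilotinib, from week 10 to the last library of 6 TKI mice, 3 members were higher and 1 lower on the rescaled values (22 and 23.7% of all genes). With TPM as deposited 0 were called (11 and 15.8%), and against coding TPM 3 were higher and 0 lower (23.7 and 17.9%). The 3 higher were low-abundance paralogs, each higher in 6 of 6 mice: Rps4l (0.48 ± 0.09, limma adjusted p = 0.00558), Rps27l (0.47 ± 0.14, 0.0295) and Rpl7l1 (0.34 ± 0.11, 0.0376). Mean Rps27l went from 11.8 to 16.3 TPM, Rpl7l1 from 8.89 to 11.6 and Rps4l from 0.990 to 1.90 TPM, near the filter. Rpl21 was lower (-0.62 ± 0.20, 0.0366, 0 of 6 mice higher), from 181 to 119 TPM.

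These calls rested on few mice. Only 1 member was higher without 508 or 511. Rps27l was not past the threshold without 502, 507, 508 or 511, Rpl7l1 not without 508, 511, 512 or 513, and Rpl21 not without 502, 507, 508, 512 or 513, and 2 members were lower without 511. The members' median change was -0.23 (-0.02 for all genes), and its batch means were -0.39 (2022_A, 4 mice) and 0.09 (2022_B, 2 mice). Both 2022_B mice ended at week 11 and the 2022_A mice at weeks 12 to 16, so that batch and time off the drug cannot be told apart. Relative to the members the same 3 paralogs were higher, Rps4l by 0.79, Rps27l by 0.71 and Rpl7l1 by 0.58, and 0 were lower (21.4 and 10.1% of all genes); 0 were higher without 502, 508 or 512 and 1 without 507 or 513. All 12 neutrophil markers were higher again (median 2.65), 10 of 10 B cell markers were lower (median -2.30), and summed neutrophil markers reached 17213 to 34817 TPM. Their part in the members' changes was not tested.

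Several members form pairs of a common gene and a divergent paralog. Over weeks 0 to 6, on the rescaled values, Rpl22 was at 0.05 (limma adjusted p = 0.599) and its paralog Rpl22l1 at 0.25 (0.0149, 14 of 17 mice), although Rpl22l1 was at -0.09 as deposited and -0.14 against coding TPM. Rps27 (-0.28, 0.079) and Rps27l (0.20, 0.056) lay on either side of 0. Rpl7 (0.24, 0.0254) and Rpl7l1 (0.22, 0.00284) were both higher, and Rpl7 was not past the threshold without mouse 476 or 484. Rps4x was higher (0.26, 0.00588, 16 of 17 mice) and Rps4l was at 0.08 (0.246). Rpl3, which lies at the peptidyl transferase centre, was at 0.33 (0.000571), Rpl39 at 0.15 (0.213) and Rpl10 at 0.20 (0.140). As deposited the values of Rpl7, Rpl7l1, Rps4x and Rpl3 were -0.11, -0.12, -0.09 and -0.02. At the shut-off Rpl22l1 was at -0.35 (0.060), lower in 4 of 4 mice.

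The wider translation machinery was read from lists of named genes. Among ribosomal proteins whose symbols fall outside the rule, 3 were higher at week 6 on the rescaled values: Fau, a fusion of a ubiquitin-like protein and a small-subunit protein (0.39 ± 0.10, limma adjusted p = 0.0015), the scaffold Rack1 (0.26, 0.00696) and Rpl36al (0.24, 0.00874). As deposited and against coding TPM 0 of these 3 were called. Set against the change in controls, 0 of the 4 genes on this list were called higher and 0 lower rescaled (8.16 and 7.93% of all genes).

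Over all genes, 33.8 and 39% were called higher and lower at week 6 rescaled, 4.21 and 16.4% as deposited and 16.3 and 58.7% against coding TPM, and the following counts stand beside those shares. Of 37 translation factors, 17 were higher and 2 lower rescaled (median 0.15), against 0 and 0 as deposited and 2 and 19 against coding TPM. Eif5a, the elongation factor that carries hypusine, rose most (0.78 ± 0.07, limma adjusted p = 2.9e-08), with Eef1b2 at 0.57, Eef1a1 and Eef2 at 0.42 and the helicase Eif4a2 at -0.57. Of the 52 ribosome assembly genes 6 were higher and 32 lower rescaled (median -0.20, against -0.02 for all genes), 0 and 6 as deposited and 0 and 44 against coding TPM, where lower calls also outnumbered higher ones over all genes on each scale. Nat10, which acetylates ribosomal RNA, was at -0.68 ± 0.08 (4.91e-07), and the small-subunit assembly factors Wdr43 and Nop56 were at -0.58 and -0.56. Npm1 (0.24) and the RNA polymerase subunit Polr1d (0.36) were among the 6 higher. Most of these calls were absent once the change in controls was taken off. Of the 37 translation factors 2 were then higher and 0 lower rescaled, and of the 52 assembly genes 0 were higher and 5 lower. Over all genes 8.16% were then called higher and 7.93% lower.

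At the shut-off 30.2 and 26% of all genes were called higher and lower rescaled, 22.3 and 4.46% as deposited and 57.5 and 10.9% against coding TPM, so that calls on the last 2 scales lean to higher. Of the lists, 1 translation factor was higher and 8 were lower on the rescaled values, with Eif5a at -0.81 and Eif4a2 at 0.58, against 1 and 0 as deposited and 22 and 0 against coding TPM. Of the assembly genes 25 were higher and 1 lower rescaled (median 0.29), 20 and 0 as deposited and 48 and 0 against coding TPM. Wdr43 (0.70), Nop56 (0.65) and Nat10 (0.53) were higher and Polr1d (-0.40) lower. After nilotinib 3 assembly genes were higher and 14 lower rescaled (median -0.25), beside 22 and 23.7% of all genes. As deposited 1 was higher and 1 lower, beside 11 and 15.8% of all genes.

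Among 19 regulators of mTORC1 and Myc, the Myc antagonist Mxd1 (1.17) and Myc itself (0.61) were higher at week 6 and the mTORC1 scaffold Rptor (-0.66) was lower, 5 higher and 8 lower in all on the rescaled values (0 and 2 as deposited, 2 and 14 against coding TPM). At the shut-off Mxd1 was at -1.74, Myc at -0.51 and Rptor at 0.74. Of 77 proteins of the mitochondrial ribosome, a separate machine with its own genes, 21 were higher and 14 lower at week 6 rescaled (median 0.07), against 0 and 1 as deposited and 5 and 48 against coding TPM, beside 33.8 and 39, 4.21 and 16.4, and 16.3 and 58.7% of all genes. Their median lay below that of the cytosolic ribosomal protein genes at week 6 (0.07 against 0.19), and whether the sets differ was not tested. With the change in controls taken off, 2 of the 77 were called higher and 0 lower rescaled. Of the 19 regulators 1 was then higher and 1 lower (8.16 and 7.93% of all genes).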

How the data were processed

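Blood RNA of 20 mice was analysed from the TPM (abundance scaled to a common sum per library) the authors deposited. Per the submitters' processing notes STAR and Salmon were used with GRCm39. Tool versions and annotation release are not given in these sources. Of 14605 genes 14537 matched GENCODE M39, 0 columns were left unmapped, and TPM keeps no depth. From the deposited TPM, log2(TPM + 1) was computed after dividing each library by a median-ratio size factor (4096 genes, 0.133 to 3.79). The 10519 genes whose TPM averaged at least 1 were tested with limma 3.58.1 (R 4.3.3, eBayes with trend) on 1 change per mouse, with Benjamini-Hochberg adjustment at 0.05. The relative scale shifts each library to a median member of 0. Python 3.11.15, numpy 2.4.6, pandas 2.3.3 and matplotlib 3.10.9 were used for the rest, and the fit was tested on simulated data.

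Members, lists and tests were chosen with earlier results of these data known. Named in each comparison were, of the members that passed, the 4 largest rises and 4 largest falls rescaled and the 3 each way on the relative scale, the 6 highest and 6 lowest members by mean TPM, the 4 most and 4 least variable, Rplp0, Rpsa and the paralog pairs. Rplp1, Rps9, Rps2, Rpl41, Rpl5 and Rpl12 are followed throughout, and other members named beside them, after their values were seen. Lists covered translation factors, ribosome assembly, mTORC1 and Myc regulators, the mitochondrial ribosome, further ribosomal proteins and blood cell markers. Some results that the rule names are not reported here. Of the marker lists, 0 of 10 red cell markers were called at week 6, and of 6 immature and cycling cell markers 3 were higher and 2 lower. The mouse is the block, as the labels give it: residuals correlated at a mean of 0.20 within mice (-0.50 to 0.55) and -0.04 between mice. No libraries were identical (0 pairs). The labels do not say if week 6 blood preceded treatment. It was treated as the level before. P-values measure the spread between these mice. Alternatives were other scalings, pseudocount, filter, start and end weeks, batch, the block, copies added and each mouse left out.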

Additional observations from a re-analysis of the deposited data

Results flagged for a closer look

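In 45 groups of 4 to 10 mice, 4 held a mouse far from the others by Dixon's criterion, which chance alone meets in about 1 group in 20. CML mouse 484 was such a mouse 3 times. Its members' median change minus that of all genes, last week against week 0, was 0.577, with the other CML mice between -0.09 and 0.09. Its relative changes from week 6 to week 10 were -0.52 for Rplp0, against 0.00 to 0.16 in the others, and -0.21 for Rplp1, against 0.12 to 0.25. In CML mouse 487, where the fusion transcript was above 0 in 3 of 19 libraries, the relative change of Rpsa from week 0 to week 6 was 0.045, with the other CML mice between 0.33 and 0.47.

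Between Tet-off and control mice, the relative change of Rpl5 differed by -0.62 (limma adjusted p = 0.0427), and by -0.05 once its copy Gm15500 was added. The cause of these departures was not tested.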

How the results depend on the processing

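Of the values of named genes under the alternatives, 6064 kept direction and side of the threshold. Another 147 were no longer past it and 53 newly passed it. The sign changed in 21 that were past the threshold in the main fit and in 276 that were not. The cause was not tested unless the alternative itself shows it.

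With TPM as deposited, calls for weeks 0 to 6 were 0 higher and 0 lower, with Rpl22l1 at -0.092, Rpl3 -0.018, Rpl7 -0.11, Rpl7l1 -0.12 and Rps4x -0.085. Nilotinib gave 0 higher, the weeks after it 0 and 0, and the shut-off 1 higher and 0 lower, with Rpsa at 0.028. Against coding TPM the counts were 4 higher and 40 lower at week 6, with Rpl22l1 at -0.14, Rpl3 -0.067, Rpl7 -0.16, Rpl7l1 -0.14 and Rps4x -0.14. Nilotinib gave 0 higher, the weeks after it 0 lower and the shut-off 44 higher and 2 lower, with Rpsa at 0.036. With copies added, 1 member was lower at week 6 (Rpl5 0.10, Rpl12 0.026), 0 were higher at the shut-off (1 relative) and 0 were lower against controls relative to members.

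From week 1, 1 member was lower rescaled (Rpl41 -0.085, Rpl12 0.16, Rplp1 -0.052) and 4 were higher relative to members (Rpl41 -0.31, Rplp0 -0.048, Rpsa -0.028, Rplp1 -0.28). With no replicate block, that is without pairing by mouse, 1 member was higher under nilotinib and 2 lower after it, and relative to members 0 were lower under nilotinib and 0 against controls; it moved no other count of members by over 1.5 times. Without the filter 16 were higher under nilotinib and 3 lower after it. A batch term gave 2 higher and 1 lower under nilotinib and 1 lower against CML mice. With week 9 as the end nilotinib gave 1 and 2, with week 11 the weeks after it gave 0 and 0, and with week 8 the relative shut-off gave 10 lower. A pseudocount of 0.1 gave 3 lower after nilotinib and 0 lower against controls relative to members.

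Leaving out each mouse gave 29 to 49 higher and 2 to 3 lower at week 6, and 0 to 1 higher against controls. Nilotinib gave 2 to 21 higher and, against CML mice, 0 to 1 lower. The weeks after it gave 1 to 2 higher and 0 to 2 lower, and the shut-off 1 to 2 higher and 7 to 20 lower. Relative to members the ranges were 12 to 16 higher and 7 to 12 lower at week 6, 0 to 1 lower against controls, 0 to 4 lower under nilotinib and 0 to 1 against CML mice. They were 0 to 3 higher after nilotinib, and 1 to 2 higher and 4 to 5 lower at the shut-off.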
